A study of Sus scrofa with 6 samples.

Results

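EEF1A1 is the gene of elongation factor 1-alpha 1, and sequences that match its protein were followed here through 6 small RNA libraries of pig duodenum. Whether they come from its messenger RNA was not tested. The deposited lists hold windows of 201 bases, each with a position and a count. A window was taken when, in any frame, it translated to at least 25 residues at 70% or more identity to the protein, and 109 of the 53269 windows met this rule (85 distinct sequences of 35718). The protein itself was read from windows of the main locus described below, not from a reference. They lay at 11 places: both pieces of a main locus on chromosome 1, which held 67 windows, and 9 further places that are called copies below. Libraries held between 8 of these windows (piglet 524) and 23 (piglet 2129).

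The study compared Sutai piglets of 28 days by their genotype at position M307 of FUT1, a fucosyltransferase gene. AA piglets are resistant and GG piglets sensitive to Escherichia coli F18. The groups were 2 AA piglets (524 and 2129) and 3 GG piglets (512, sequenced in 2 runs, 2134 and 2383), kept alike and sampled as duodenal tissue, with no treatment named in the labels. Piglet 512 was a full sib of piglet 524, and piglet 2134 of piglet 2129. The library of the AA sib of piglet 2383 was not analysed here. Total listed counts ran from 42354 (piglet 2383) to 192861 (piglet 2134), no window had fewer than 5 counts, and the factors that correct the totals for composition ran from 0.595 (2134) to 1.54 (2383). A window that is not listed may thus lie below that count or have been filtered out. No protein table was used that could name cell type markers, so the tissue label was not checked against them, and in whole tissue fewer cells of a type and less RNA per cell cannot be told apart.

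Elongation factor 1-alpha binds GTP and carries aminoacyl-tRNA to the ribosome, and it is released once GTP is hydrolysed. Its messenger is abundant in almost every tissue and begins with a pyrimidine tract that ties its translation to nutrient supply. Abundant messengers are at times copied back into DNA and inserted elsewhere in the genome. Such processed copies lack introns and gather stop codons and base changes, so a short fragment can match the gene and several copies at once.

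The main locus held the gene in pieces. Exon limits were set by hand and required to have splice letters and an open frame. The open frame is therefore not a separate result, and it was not compared with a reference protein. Its windows carried a reading frame of 462 residues in 7 coding exons, numbered 2 to 8 because the first exon of the known gene is noncoding. Exons 2 to 6 (residues 1 to 343) lay on the minus strand at chr1:97569296-97570916 and exons 7 and 8 on the plus strand at chr1:97617677-97618306, with 46875 bases between the start codon and exon 7. Unread bases (N) bordered both pieces, 84 in windows of the first and 56 in windows of the second. The pieces thus stood apart and in opposite orientation in the assembly used by the files, whose build is not given in the sources used here. The listed windows together covered all of the coding sequence except 30 bases (residues 260 to 270).

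The sequences below show what separates the gene from its copies. The first set gives the end of exon 7, the start of exon 8 and the same place in the copy on chromosome 10, with intron bases in capitals (chr1:97617996-97618031 and chr1:97618096-97618131, plus strand, and chr10:24899866-24899901, minus strand).
main locus, end of exon 7: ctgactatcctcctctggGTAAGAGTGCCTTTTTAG
main locus, start of exon 8: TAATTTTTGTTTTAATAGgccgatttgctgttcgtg
chromosome 10 copy: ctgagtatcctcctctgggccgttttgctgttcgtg
The copy ran from exon 7 into exon 8 without an intron and differed from the joined exons in 2 of the bases shown.

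The next set gives residues 424 to 459, within exon 8, where 4 copies could be set beside the gene, with capitals for bases that differ from the main locus. The places are chr1:97618119-97618226 (plus strand), chr10:24899771-24899878 (minus), chr15:23355549-23355656 (plus), chr13:8495692-8495799 (minus) and chr9:6277237-6277326 (minus).
main locus: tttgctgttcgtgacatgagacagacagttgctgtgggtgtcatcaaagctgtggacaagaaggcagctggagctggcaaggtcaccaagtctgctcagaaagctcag
chromosome 10 copy: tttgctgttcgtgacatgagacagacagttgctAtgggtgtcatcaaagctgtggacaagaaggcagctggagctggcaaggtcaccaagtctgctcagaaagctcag
chromosome 15 copy: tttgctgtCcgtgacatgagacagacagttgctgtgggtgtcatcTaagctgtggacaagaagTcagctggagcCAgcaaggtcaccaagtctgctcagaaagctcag
chromosome 13 copy: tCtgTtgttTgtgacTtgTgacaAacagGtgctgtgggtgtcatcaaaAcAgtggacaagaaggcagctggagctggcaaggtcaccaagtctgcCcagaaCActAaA
chromosome 9 copy a: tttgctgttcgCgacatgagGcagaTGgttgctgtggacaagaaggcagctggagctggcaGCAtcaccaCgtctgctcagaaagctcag
Over these 108 bases the chromosome 10 copy differed at 1 base, the chromosome 15 copy at 5 and the chromosome 13 copy at 14. The chromosome 15 copy had a stop codon at residue 439 and the chromosome 13 copy at residue 430. The chromosome 9 copy a lacked 6 residues without leaving the frame and differed at 8 of its remaining 90 bases.

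Residues 209 to 251 of exon 5 show the copies on chromosomes 12 and 7, again with differing bases in capitals (chr1:97569752-97569880, minus strand, chr12:43955171-43955299, plus, and chr7:82505267-82505395, minus).
main locus: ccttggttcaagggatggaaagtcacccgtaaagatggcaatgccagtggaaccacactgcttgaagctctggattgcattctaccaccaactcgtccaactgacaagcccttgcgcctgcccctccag
chromosome 12 copy: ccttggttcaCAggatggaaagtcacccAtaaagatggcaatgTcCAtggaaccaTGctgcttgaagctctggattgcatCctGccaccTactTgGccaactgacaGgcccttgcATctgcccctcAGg
chromosome 7 copy: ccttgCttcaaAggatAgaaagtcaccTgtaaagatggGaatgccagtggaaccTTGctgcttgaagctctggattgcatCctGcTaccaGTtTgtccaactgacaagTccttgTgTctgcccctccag
These copies differed at 18 and 17 of 129 bases. A stop codon lay at residue 214 on chromosome 7, inside the stretch shown, and at residue 196 on chromosome 12, just before it.

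A window pair on chromosome 9, named b and c here, differed from the gene in another way. Residues 54 to 107 of exon 3 are given for the main locus and copy b (chr1:97570388-97570549 and chr9:25784249-25784410, both on the minus strand), with differing bases in capitals. Copy c (chr9:26064910-26065071) had the same letters there. The lines after them give the end of exon 3, with the bases beyond residue 108 in capitals (chr1:97570367-97570402, chr9:25784228-25784263 and chr9:26064889-26064924, minus strand).
main locus: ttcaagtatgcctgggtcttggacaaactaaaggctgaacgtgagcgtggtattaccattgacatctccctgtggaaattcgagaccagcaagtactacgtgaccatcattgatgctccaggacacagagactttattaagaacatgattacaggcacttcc
chromosome 9 copy b: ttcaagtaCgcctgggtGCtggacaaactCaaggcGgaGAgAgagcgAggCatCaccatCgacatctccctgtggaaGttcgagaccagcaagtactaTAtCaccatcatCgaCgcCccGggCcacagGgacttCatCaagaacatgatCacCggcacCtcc
main locus, end of exon 3: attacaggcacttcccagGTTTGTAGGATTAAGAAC
chromosome 9 copy b, end: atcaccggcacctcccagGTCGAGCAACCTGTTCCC
chromosome 9 copy c, end: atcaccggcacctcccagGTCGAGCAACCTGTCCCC
Over residues 54 to 108, copies b and c differed from the main locus at 27 bases, of which 24 fell on the last base of a codon, and 24 codons changed without changing the residue against 1 that changed it. The match ended with the last residue of exon 3, and the next 2 bases were GT, the letters that begin an intron. Of the 35 bases that followed, 6 equalled the gene's own intron. These windows thus gave no sign of joined exons, and whether they are copies of EEF1A1 or belong to another gene of the family was not tested.

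The copies fell into groups by how far they had moved from the gene. The chromosome 10 copy, with 114 codons under its windows (residues 349 to 462), was the closest: 97.7% of bases and 96.5% of residues equalled the main locus. No stop codon was found within the match. The longest run of identical bases in a window was 83, but runs were measured only up to residue 462 and may be longer. The chromosome 4 copy (residues 119 to 185) kept an open frame at 93.0% base and 91.0% residue identity, but it lay within 1 exon, so the absence of introns could not be seen. On chromosome 15 the first window (residues 158 to 225) was open at 91.2% base identity, and the second, with the stop codon, had 94.9%. The copies on chromosomes 12, 7 and 13 were farther away, at 87.1%, 86.7% and 86.2% of bases and 78.9%, 80.0% and 73.2% of residues. Residue identity was lower than base identity in every copy except copies b and c of chromosome 9. The chromosome 9 copies b and c stood apart with 83.6% of bases but 98.2% of residues equal. The copies on chromosomes 10, 12 and 15 crossed an exon join of the gene without an intron. Those on chromosomes 7 and 13 and copy a on chromosome 9 began to match at residues 203, 419 and 420. The joins there lie after residue 207 and within residue 422. So short a match before a join does not show that an intron is absent. Main locus windows of exon 4, which ends at residue 207, also matched to residue 211.

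**Figure D1:**
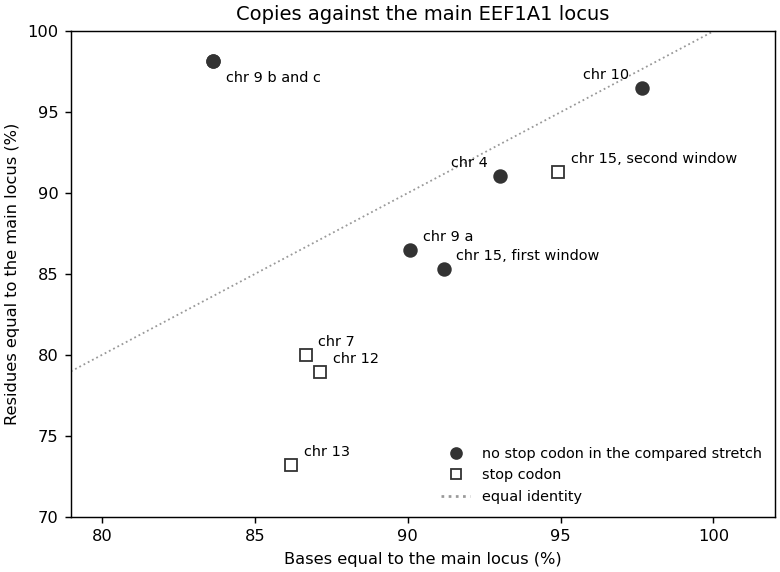
Percent of bases (x axis) and of residues (y axis) equal to the main locus, over the codons compared for each copy, with the 2 windows of chromosome 15 apart; open squares have a stop codon and the dotted line marks equal identity. Chromosome 9 copies b and c lie far above the line, at 83.6% of bases and 98.2% of residues, and the other copies lie below it.

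Counts at the main locus far outnumbered those at the copies. The first piece held 93 counts in piglet 524 and 351 in piglet 2129, both AA. In the GG libraries it held 275 and 269 in the runs of piglet 512, 281 in piglet 2134 and 161 in piglet 2383. The second piece was smaller, at 14 counts for piglet 524 and 57 for piglet 2129, then 40 and 39 for the runs of piglet 512, 36 for piglet 2134 and 24 for piglet 2383. Both pieces were listed in every library, lowest in piglet 524 and highest in piglet 2129, so the listed counts of each GG library lay between those of the AA piglets. These counts are not scaled for depth. With its runs summed, piglet 512 had 623 counts at the main locus, more than the 408 of piglet 2129.

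The chromosome 10 copy was the only copy listed in all 6 libraries. Its counts were 9 for piglet 524 and 90 for piglet 2129, both AA, then 42 and 62 for the runs of piglet 512, 64 for piglet 2134 and 31 for piglet 2383. As a share of the piglet's EEF1A1 counts this was 7.76% in piglet 524 (95% Wilson interval 4.14 to 14.1) and between 13.1% (piglet 2383) and 16.5% (piglet 2129) in the others. Such intervals treat each count as independent, which is not known here, so they may be too narrow. They also leave out the spread between piglets. The largest of its counts, 75 in piglet 2129, came from a window with 26 matched residues whose middle lay past the stop codon. The other windows of the copy held 2.75% of EEF1A1 counts in piglet 2129 (1.67 to 4.49), below the 7.76% of piglet 524. Windows a few bases farther along, with 23 or 21 matched residues and thus just outside the rule, held 29 counts in run 1 and 6 in run 2 of piglet 512 and 9 in piglet 2383. The count of this copy therefore depended on where a window began.

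The other copies held few counts each. The chromosome 13 copy (chr13:8495598-8495816) was listed in all libraries but that of piglet 524, with 5 to 8 counts. Copy a on chromosome 9 (chr9:6277164-6277364) had 7 counts in piglet 2129, 5 and 6 in the runs of piglet 512 and 8 in piglet 2134. The chromosome 4 copy (chr4:93360406-93360607) was listed in GG libraries only, with 7 and 9 counts in the runs of piglet 512 and 8 in piglet 2134. Its counts were few and were not tested between genotypes. The chromosome 15 copy (chr15:23354522-23355733) had 12 counts in piglet 2129 and 5 each in piglets 2134 and 2383. The copies on chromosome 12 (chr12:43955127-43955327) and chromosome 7 (chr7:82505205-82505414) were each listed in piglet 2129, run 2 of piglet 512 and piglet 2134, with 5 to 7 counts. Copies b and c on chromosome 9 had equal counts, 6 in piglet 2129 and 5 in piglet 2383, and differed in 2 bases of the window. In piglet 524 the only copy listed was the one on chromosome 10.

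Windows with a stop codon inside the match held 74 of the 2095 EEF1A1 counts (3.53%). Their share of EEF1A1 counts was 0% in piglet 524 and 4.04% in piglet 2129, and 2.71%, 4.96% and 4.24% in GG piglets 512, 2134 and 2383. The genotypes overlapped, and the means were 3.97% ± 1.15 (SD, n = 3) for GG and 2.02% ± 2.85 (SD, n = 2) for AA. The difference of 1.95 percentage points had a p of 0.4 in a two-sided exact permutation test over the 10 splits of the piglets, where 0.1 is the smallest possible. Without piglet 524 the difference was -0.0662 points.

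No member sequence was listed at more than 1 place in a library, whereas 18 were listed in more than 1 library. Over all the files, 2485 of 2495 sequences that stood at several places in a library had equal counts there (99.6%). Whether reads from bases that the gene and a copy share stand in the counts of both was not tested. The loci are therefore uncertain as separate sources.

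Windows of the main locus were centred on coding bases. The middle base of the window, its 101st, lay in a coding exon in 63 of 67 windows and within 2 bases of one in the other 4, although 57 of the windows also held intron or untranslated bases at their ends. Of 1640 counts at the main locus, 1408 belonged to windows with the middle in an exon. No main locus window of the rule was centred farther from a coding exon, but the rule itself asks for coding bases and so favours this.

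Exon 3 gave the most counts for its length in every piglet, with each window given to the exon nearest its middle. Much of this came from windows centred at the end of the exon. In piglet 2129, 1 such window, centred 1 base outside the exon, held all 131 counts of exon 3. Such windows held 38 of 48 counts in piglet 524, 53 of 95 in piglet 2134 and 39 of 74 in piglet 2383. In the runs of piglet 512 they held 52 of 94 and 50 of 84. Exon 3 codes for residues 49 to 108, in the part of the protein that binds GTP. Per 100 coding bases and after scaling, it held 35.1 in piglet 524 and 70.5 in piglet 2129, and 56.1, 46.8 and 64.1 in GG piglets 512, 2134 and 2383, or 54.5 ± 14.0 (SD, n = 5). Exon 2 followed with 22.4 ± 13.1 and exon 4 with 21.5 ± 7.73, then exon 6 with 16.8 ± 5.42, exon 5 with 11.1 ± 7.95, exon 7 with 10.6 ± 3.29 and exon 8 with 10.2 ± 6.88. After exon 3, each exon in this order differed from the next by less than the larger of their SDs. Exon 3 makes up 180 of the 1389 coding bases and held from 28.6% (piglet 512) to 44.9% (piglet 524) of the main locus counts. In piglet 524 exons 2, 5 and 8 had no listed window, while each exon was listed in every other piglet.

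**Figure D2:**
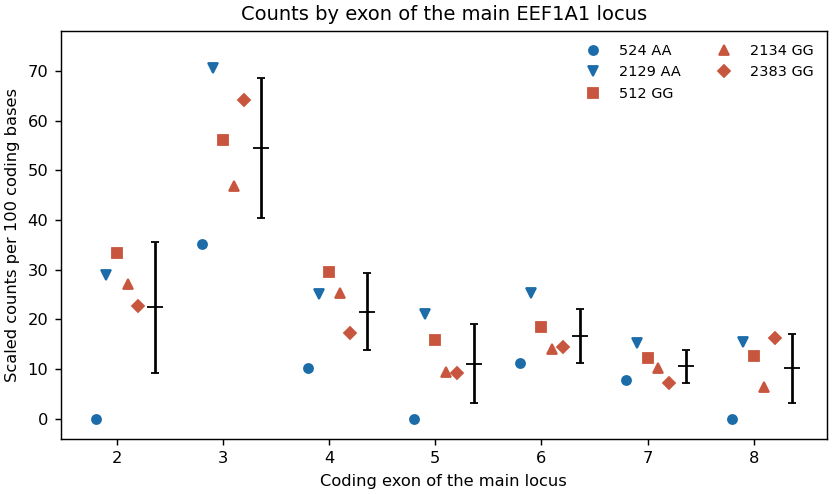
Scaled counts per 100 coding bases (y axis) for each coding exon of the main locus (x axis), with a point per piglet, blue for AA and red for GG; the black mark and bar are the mean and SD over 5 piglets. Exon 3 is the highest exon in all 5 piglets, with a mean of 54.5, and piglet 524 sits at 0 in exons 2, 5 and 8.

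The second piece of the main locus held fewer counts for its length than the first. Per 100 coding bases, the first piece of the main locus held from 2.15 (piglet 2129) to 2.73 (piglet 2134) times as many listed counts as the second piece, over the 6 libraries. Without exon 3 the ratio ran from 1.36 (piglet 524) to 2.19 (piglet 2134). With the counts of the chromosome 10 copy added to the second piece, the ratio of all exons ran from 0.835 (piglet 2129) to 1.41 (piglet 524), but it was 1.71 for piglet 2129 without the window centred past the stop codon. The copy held 0.643 times the count of the second piece in piglet 524 and from 1.05 to 1.78 times in the other libraries, with 0.263 for piglet 2129 once that window was left out. Among windows centred in exon 8, the copy exceeded the main locus in 5 of 6 libraries. Piglet 524 had 9 counts against 0, whereas piglet 2129 had 0 against 20. The runs of piglet 512 had 15 against 14 and 43 against 14, piglet 2134 had 46 against 9 and piglet 2383 had 24 against 13. Of the 46 counts, 31 belong to a window centred on the last base before the stop codon. How reads were divided between near-identical places is not given in the sources used here, and its part in these ratios was not tested.

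**Figure D3:**
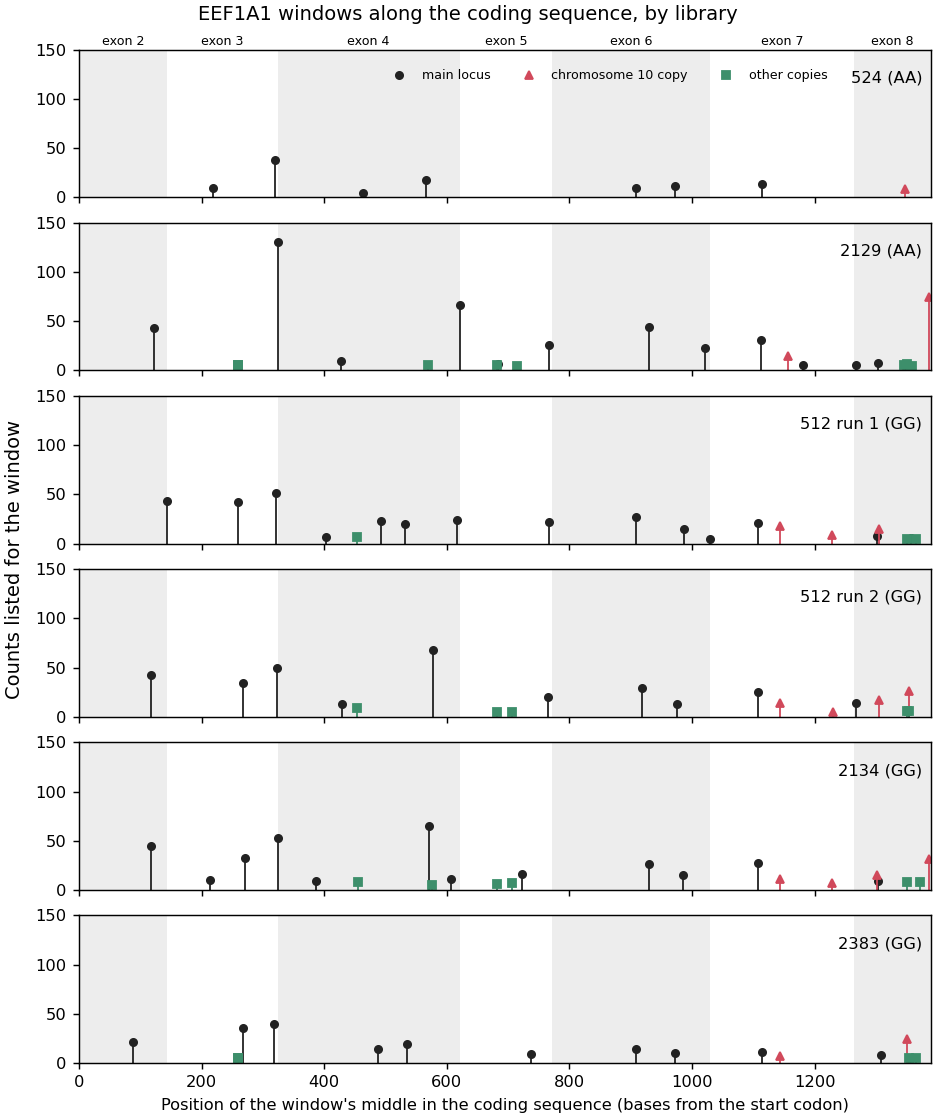
Counts listed for each window (y axis) at the position of its middle in the coding sequence (x axis, bases from the start codon), in a panel per library, with exons shaded in turn; black circles are the main locus, red triangles the chromosome 10 copy and green squares the other copies. The highest window lies at the end of exon 3 in piglet 2129 and red triangles appear only in exons 7 and 8; the one of 75 counts, centred past the stop codon, is drawn at the last matched base.

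The runs of piglet 512 show the spread between sequencings of 1 animal. They listed 20 and 19 EEF1A1 windows with 374 and 401 counts. Only 4 windows began at the same base, and 12 of the 20 windows of run 1 had a window of run 2 within 15 bases. Window limits thus shifted between runs of the same animal, and the count of the chromosome 10 copy in exon 8 moved from 15 to 43. EEF1A1 took 0.389% of listed counts in run 1 (95% Wilson interval 0.351 to 0.430) and 0.446% in run 2 (0.404 to 0.491), which overlap.

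The genotypes were then compared for the whole gene. EEF1A1 took 0.206% of listed counts in AA piglet 524 (0.172 to 0.247) and 0.429% in AA piglet 2129 (0.394 to 0.466). In GG piglets it took 0.416% in piglet 512, 0.219% in piglet 2134 (0.199 to 0.241) and 0.557% in piglet 2383 (0.491 to 0.633). The lowest and the second highest share were both AA, and the genotypes overlapped. The GG mean of 0.398% ± 0.170 (SD, n = 3) exceeded the AA mean of 0.317% ± 0.158 (SD, n = 2) by 0.0802 percentage points, with a p of 0.6 in the two-sided exact permutation test. Without piglet 524 the difference was -0.0313 points, without piglet 2129 it was 0.192, without piglet 2134 it was 0.169 and without piglet 2383 it was 0.000332.

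After scaling for depth and composition, the EEF1A1 count was 152.7 in piglet 524 and 528.3 in piglet 2129, and 439.5, 375.1 and 367.9 in GG piglets 512, 2134 and 2383. The AA piglets lay at both ends of the range and the GG piglets lay close together between them, with means of 340.5 ± 266 (SD, n = 2) and 394.1 ± 39.4 (SD, n = 3). The log2 difference, GG minus AA, was 0.47 (SE 0.53) in limma, with an adjusted p of 0.691. The main locus alone gave 0.37 (SE 0.46, adjusted p 0.707 in limma). Scaled counts of the main locus were 140.8 for piglet 524 and 395.5 for piglet 2129, against 353.3, 281.1 and 288.4 for GG piglets 512, 2134 and 2383, again with the GG piglets between the AA piglets. All copies together gave 1.08 (SE 0.90, adjusted p 0.612 in limma).

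The direction rested on a single AA piglet and turned between the sib pairs. Piglet 512 exceeded its AA sib 524 by 1.52 on the log2 scale, while piglet 2134 was lower than its AA sib 2129, with a difference of -0.49. Leaving out piglet 524 gave a difference of -0.51 for EEF1A1 and -0.46 for the main locus, and leaving out piglet 2129 gave 1.38 and 1.14. With windows of at least 40 matched residues the differences were 1.03 and 0.95, and with only the highest window of each library -0.36.

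**Figure D4:**
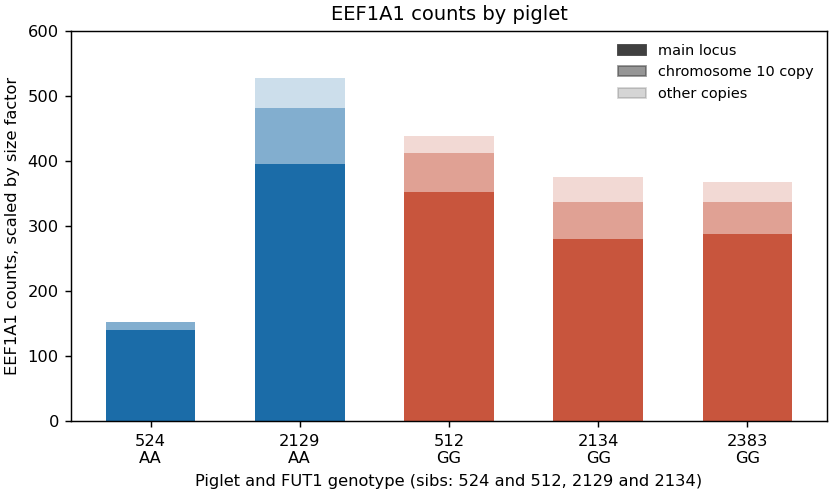
EEF1A1 counts after scaling by size factor (y axis) for each piglet (x axis), blue for AA and red for GG, divided from the darkest to the palest part into main locus, chromosome 10 copy and other copies. The AA piglets hold the lowest total, 152.7, and the highest, 528.3, and the 3 GG piglets lie between 367.9 and 439.5.

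The regions that hold the gene were read against all regions. Overlapping windows were merged, also with windows outside the rule, and 2777 of 24665 regions had at least 10 counts in at least 2 piglets. Limma called 0 of them at an adjusted p under 0.05 (0%), and 241 had an unadjusted p under 0.05 (8.68%). No other tool was run. With the sib pair as a block, which leaves 1 residual degree of freedom, limma called 47 regions. Leaving out piglet 2129 gave 2 calls and leaving out piglet 2134 gave 4. Of 14 regions that hold EEF1A1 windows, 5 passed the count filter, all of them on chromosomes 1 and 10, and none of these had an unadjusted p under 0.05. Of these 5, 4 had a higher mean in GG and 1 a lower, with a median log2 difference of 0.45, beside 58.5% higher and a median of 0.20 over all regions. The median over all regions was 0.07 when scaled by total counts alone, where EEF1A1 gave 0.32.

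Exon 2 showed the widest gap among these regions. The region holding it (chr1:97570659-97570916) had 0 and 43 counts in AA piglets 524 and 2129, against 85, 44 and 21 for GG piglets 512, 2134 and 2383. Its log2 difference was 1.70 (SE 0.96, adjusted p 0.533 in limma), and this rests on the unlisted value in piglet 524. The region of exon 6 (chr1:97569296-97569608), with 22 and 67 counts for AA and 84, 41 and 24 for GG, gave -0.11 (SE 0.40). The region with exons 3 to 5 (chr1:97569639-97570596) gave 0.35 (SE 0.42) and that with exons 7 and 8 (chr1:97617677-97618579) 0.45 (SE 0.54).

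The chromosome 10 region (chr10:24899380-24900105), with its neighbouring windows included, had 16 and 123 counts for AA and 198, 90 and 48 for GG, a log2 difference of 0.78 (SE 0.69, adjusted p 0.624 in limma). Its EEF1A1 windows alone gave 0.72 (SE 0.76, adjusted p 0.680 in limma). When the window of piglet 2129 centred past the stop codon was left out, a choice made after the values were seen, the scaled counts were 11.8 and 14.5 for AA against 59.0, 56.7 and 48.3 for GG. These no longer overlapped, but the share of all regions without overlap between the groups was not counted. The log2 difference was then 1.97 (SE 0.29, adjusted p 0.251 in limma). The value thus turned on 1 window, which held 75 of the 90 listed counts of piglet 2129. A window of 31 counts in piglet 2134, centred on the last base before the stop codon, was kept. The gap after this choice therefore gives no support for a difference between genotypes. With the neighbouring windows included the groups overlapped in listed counts.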

How the data were processed

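Small RNA of duodenal tissue from 5 Sutai piglets was measured in 6 libraries. The authors deposited, per the file headers, a whole-number count for each 201-base window with its sequence; the aligner, the filters and the build were not given in the sources used here. Whether a count stands for reads or distinct reads is not stated, and the strand of reads was not in the lists. The members and lists were chosen with earlier results of these data known.

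The protein was read from the main locus windows, with exon limits set by hand and checked by script for splice letters and an open frame, and searched with tblastn (BLAST 2.17.0). Overlapping windows were merged, leaving out 4 whole-length mitochondrial records. The runs of piglet 512 were summed. Scaling was a TMM of own code (30% and 5% trims) and limma 3.58.1 (R 4.3.3, trend) was run on log2(scaled count + 1), with 2 counts for an unlisted feature and Benjamini-Hochberg adjustment over all rows. Shares used all splits in Python 3.11.15 and SciPy 1.17.1 (Wilson intervals). Sib pairing comes from the labels, and the block is an alternative. The fit was tested on simulated data with larger changes than the EEF1A1 difference and no unlisted features. That test does not show how well the fit finds differences of the size seen here. Every window was described, by locus. Planned comparisons with other translation genes, ubiquitous genes, cell type markers and the genes most like EEF1A1 needed protein sequences and were not analysed here. Per the labels, total RNA was extracted with Trizol.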

Additional observations from a re-analysis of the deposited data

How the results depend on the processing

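Fits with edgeR and DESeq2, planned as alternatives, were not run, although the merged regions held whole-number counts. How the results depend on a count model was thus not tested. EEF1A1 and the main locus did not pass the limma test under any alternative that was run. Leaving out 1 piglet at a time gave log2 differences from -0.51 to 1.38 for EEF1A1 and from -0.46 to 1.14 for the main locus, from -0.0313 to 0.192 percentage points for the share of listed counts, and from -0.0662 to 3.97 points for the share of broken frames. In each of these the lowest value was without AA piglet 524 and had the opposite sign, and the highest without AA piglet 2129. With the highest window of each library alone EEF1A1 gave -0.36. With at least 40 matched residues it gave 1.03, the main locus 0.95 and the share 0.152 points. This limit left out windows of 131, 75 and 67 counts in AA piglet 2129. It also left out windows of other libraries, the largest with 53 counts in piglet 2134. The part of these windows in the difference was not tested. With the sib pair as a replicate block EEF1A1 gave 0.51 and the main locus 0.41. An alternative chosen after seeing the data, windows with the middle in the reading frame, gave 0.57. Limma called 0 regions, but 47 with scaling by total counts, 88 without the count filter, 47 with the sib block and from 0 to 4 with a piglet left out. Counts of 5 or more are listed, so windows below that limit cannot be compared.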

Other observations

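Windows beside the gene that match no coding residues, or too few to be members, were also listed. Upstream of the start codon, windows at about the same place were listed in all 6 libraries, with 5 counts in piglet 524, 9 in piglet 2129, 7 and 12 in the runs of piglet 512, 12 in piglet 2134 and 7 in piglet 2383. Windows at the end of the reading frame and beyond it held 55 counts at the main locus and 177 at the chromosome 10 copy over all libraries. On the chromosome 10 side they were listed in every library, from 7 counts in piglet 524 to 56 in run 1 of piglet 512, and at the main locus in every library but that of piglet 524. Some of these windows hold up to 23 matched residues, and they were not named.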
